A study of Homo sapiens with 6 samples.

Results

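Matrix metalloproteinases (MMPs), the ADAMTS proteases and the tissue inhibitors of metalloproteinases (TIMPs) were read across 6 RNA-seq libraries of the human triple-negative breast cancer line MDA-MB-231. The genes were taken by symbol: MMP followed by digits and an optional letter, ADAMTS followed by digits, and TIMP1 to TIMP4. This gave 47 of the 24462 symbols listed, namely 24 MMP, 19 ADAMTS and 4 TIMP genes. Of the 47, 32 had enough counts to be tested and 15 did not.

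The libraries fall into 3 groups of 2. The ELK3-labelled libraries are cells with a stable retroviral shRNA knockdown of ELK3 (ELK3KD-231), taken 48 hours after transfection with pLenti-cMyc-DDK-ELK3 (1 µg). The vector-labelled libraries are the same knockdown cells 48 hours after transfection with the empty plasmid, pLenti-cMyc-DDK (1 µg). The controls are MDA-MB231 cells infected with a control retrovirus, with no plasmid transfection recorded, so that a contrast with them mixes knockdown and transfection. The labels do not say whether the knockdown is 1 clone, or whether the replicates are separate cultures, so the p-values measure the spread between these libraries only. All 6 libraries were made from 500 ng of total RNA with a kit named as Quant-Seq. ELK3, the ETS-family factor that was targeted, had 20.3 and 22.6 counts per 1000000 (CPM, scaled by TMM) in the ELK3-labelled libraries, 757 and 695 CPM in the vector-labelled libraries and 128 and 124 CPM in the controls. Its level thus ran against the labels, highest where a knockdown with empty vector is labelled and lowest where re-expression is labelled (ELK3-labelled over vector-labelled log2 fold change -5.07 ± 0.11, adjusted p = 3.63e-28). The headings of the deposited columns of these 4 libraries carry abbreviations that read the other way round from the sample titles. Groups are called here by their labels, and each direction below follows them.

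Marker genes of the line also differed between the groups. Of 16 genes typical of MDA-MB-231 and mesenchymal breast cancer cells, 15 were lower and 1 higher in the ELK3-labelled libraries than in the controls, and 15 were lower and 1 higher in the vector-labelled libraries. Their summed level was 979 and 935 CPM in ELK3-labelled cells, 1019 and 986 CPM in vector-labelled cells and 6014 and 5844 CPM in control cells. Of 14 genes typical of the embryonic kidney line HEK293, 12 were tested; 10 were higher and 1 lower in the ELK3-labelled libraries than in the controls, and 10 higher and 1 lower in the vector-labelled ones. Their sums were 512 and 506 CPM in ELK3-labelled cells, 297 and 296 CPM in vector-labelled cells and 71.4 and 70.8 CPM in control cells. A difference in cell line between the plasmid groups and the controls therefore cannot be told apart from the labelled knockdown and transfection in any result against the controls. Between the ELK3-labelled and the vector-labelled libraries, 4 of the 16 breast cancer markers were higher and 3 lower. Of the 12 kidney line markers tested, 5 were higher and 1 lower there. Their sums also differed between the plasmid groups, so a difference in cells cannot be told apart from the plasmid there either. The shares of all genes were 30% higher and 29.6% lower between the plasmid groups, at an adjusted p under 0.05. They were 31.8% and 30.8% in ELK3-labelled over control, and 37% and 35.3% in vector-labelled over control. Library totals ranged from 4884483 to 9131214 counts, and a count of 0 in a library allows up to 0.329 to 0.614 CPM (3 counts). Intervals and floors cover counting error only.

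MMPs are zinc proteases, most of them secreted and some bound to the membrane, that are made as inactive precursors and cut collagens, laminins, proteoglycans and other proteins outside the cell. ADAMTS proteases are secreted relatives with thrombospondin repeats; some cleave proteoglycans such as versican, others trim procollagens or cut von Willebrand factor. TIMPs bind the active site of MMPs and block it, and TIMP2 also helps the membrane-bound MMP14 to activate MMP2. In invasive breast cancer these families are known for the turnover of basement membrane and stroma, and several MMP genes are known targets of AP-1 and ETS factors, the family to which ELK3 belongs.

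In all 3 comparisons some of these genes were higher and others lower, and the families did not move as a block. Between the ELK3-labelled and the vector-labelled libraries, which were both transfected, 6 of the 32 tested genes were higher and 8 lower at an adjusted p under 0.05. The test was edgeR's quasi-likelihood test with Benjamini-Hochberg adjustment over all genes. Of all 15386 genes tested, 30% were higher and 29.6% lower there, or 59.6% in either direction. In the ELK3-labelled libraries compared with the controls, 12 of the 32 were higher and 8 lower, against 31.8% and 30.8% of all genes, or 62.6%. In the vector-labelled libraries compared with the controls, 17 of the 32 were higher and 10 lower, against 37% and 35.3% of all genes, or 72.3%. Of the 32 tested genes, 11 passed the filter on low counts only through 1 group and were thereby bound to be higher there: MMP7, MMP10, MMP12, MMP13, ADAMTS4, ADAMTS18 and ADAMTS20 through the vector-labelled libraries, MMP16 and ADAMTS5 through the ELK3-labelled libraries, and ADAMTS12 and ADAMTS16 through the controls. MMP2, MMP11, MMP23A, ADAMTS2, ADAMTS8, ADAMTS13, ADAMTS17 and ADAMTS19 passed through the plasmid groups alone, with at most 9 counts in a control. They were thereby bound to be higher in those groups than in the controls. Their fold changes and p-values over the controls describe these libraries and support nothing further. The counts of higher and lower genes above are therefore a description. The median log2 fold change of the tested members was 0.06, 0.84 and 0.87 in these 3 comparisons, and that of all genes tested was -0.02, 0.02 and 0.05. The last 2 comparisons share the control libraries. A median weighs weak genes as much as strong ones, and the summed levels ran otherwise. The MMP sum was 53.8 and 49.9 CPM in ELK3-labelled cells, 70.0 and 73.9 CPM in vector-labelled cells and 113 and 99.5 CPM in control cells. The ADAMTS sum was 125 and 129 CPM in ELK3-labelled cells, 81.8 and 84.2 CPM in vector-labelled cells and 108 and 112 CPM in control cells. The counts between the plasmid groups depended on single libraries: 3 genes were higher without vector-labelled replicate 1, and 4 were lower without vector-labelled replicate 2 or without ELK3-labelled replicate 2. DESeq2 called 4 higher and 4 lower there. By family, 1 MMP, 4 ADAMTS and 1 TIMP gene were higher in the ELK3-labelled than in the vector-labelled libraries, and 5 MMP, 1 ADAMTS and 2 TIMP genes were lower. Relative to the controls, the ELK3-labelled libraries had 4 MMP and 8 ADAMTS genes higher, and 2 MMP, 4 ADAMTS and 2 TIMP genes lower. In the vector-labelled libraries 6 MMP, 10 ADAMTS and 1 TIMP gene were higher than in the controls, and 4 MMP, 4 ADAMTS and 2 TIMP genes were lower.

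**Figure D1:**
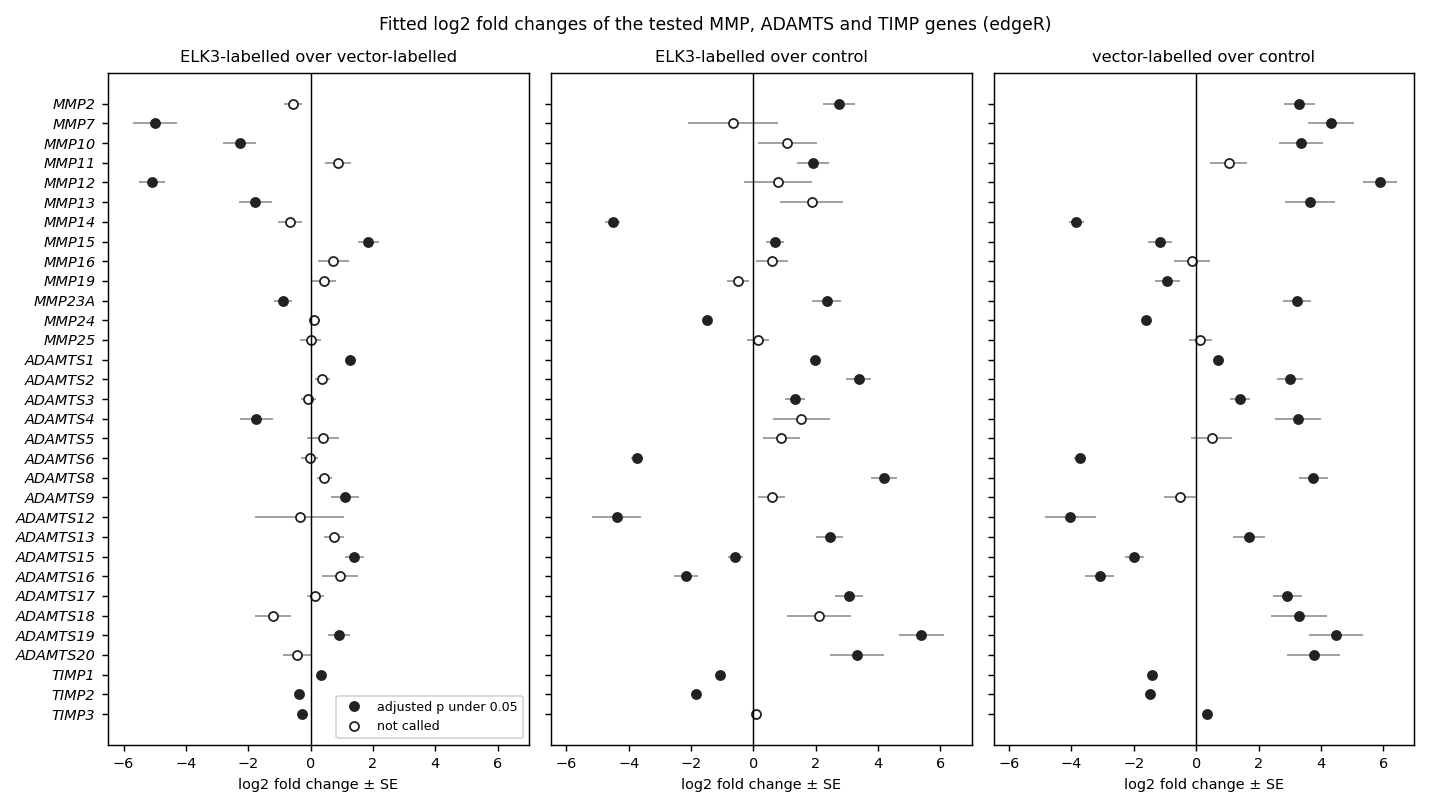
Fitted log2 fold changes (horizontal axis, bars are the SE of the fit) of the 32 tested MMP, ADAMTS and TIMP genes in the 3 comparisons, with filled points for an adjusted p under 0.05 and open points for the rest. MMP7 and MMP12 lie near -5 in the ELK3-labelled over vector-labelled panel and above 4 in the vector-labelled over control panel, and in the panels against the controls MMP14 lies at -4.51 and -3.84.

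A cluster of secreted MMP genes on chromosome 11 held MMP12, MMP7 and MMP10, which were each lower in the ELK3-labelled than in the vector-labelled libraries. In the GENCODE 29 annotation of GRCh38 this cluster holds 9 of the genes, all on the minus strand, within 435 kb, in the order MMP7, MMP20, MMP27, MMP8, MMP10, MMP1, MMP3, MMP12 and MMP13. MMP7, MMP10, MMP12 and MMP13 were high in the libraries with the most ELK3 transcript, the vector-labelled ones, and had at most 9 counts in any other library. The other 5 genes had at most 6 counts in any library. Both contrasts with the vector-labelled libraries below share those libraries. Since MMP7, MMP10, MMP12 and MMP13 passed the filter through that group alone, their fold changes and p-values describe these libraries and support nothing further.

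MMP12, or macrophage elastase, had 0.317 and 0.424 CPM in ELK3-labelled cells, 12.7 and 14.8 CPM in vector-labelled cells and 0.417 and 0 CPM in control cells. Both vector-labelled libraries stood far above the other 4, which overlapped. The ELK3-labelled level was lower than the vector-labelled one by 34.2-fold (log2 fold change -5.09 ± 0.42, adjusted p = 2.67e-12), from 6 counts against 161. Against the controls, with 2 counts in all, the vector-labelled libraries gave a ratio of 64.3 (95% counting interval 17.5 to 536) and an adjusted p = 1.16e-11. MMP7, or matrilysin, a small MMP without the hemopexin domain, had 0 and 2 counts in ELK3-labelled cells, 30 and 25 in vector-labelled cells and 2 and 0 in control cells. Both vector-labelled libraries stood above the other 4. MMP7 was lower in the ELK3-labelled than in the vector-labelled libraries, with a vector-labelled over ELK3-labelled ratio of 36.5 (95% counting interval 9.65 to 309), adjusted p = 1.95e-07. The vector-labelled over control ratio was 22 (95% counting interval 5.8 to 186), adjusted p = 3.8e-06. MMP10, stromelysin 2, had 2 and 9 counts in ELK3-labelled cells, 27 and 14 in vector-labelled cells and 1 and 2 in control cells. Its groups did not overlap between the plasmid libraries, with a log2 fold change of -2.28 ± 0.53, adjusted p = 0.000372. The vector-labelled over control ratio was 10.9 (95% counting interval 3.48 to 55.1), adjusted p = 9.16e-05. MMP13, collagenase 3, had 6 and 7 counts in ELK3-labelled cells, 17 and 17 in vector-labelled cells and 0 and 2 in control cells. The vector-labelled libraries were highest and the controls lowest, with no overlap in CPM. It was lower in the ELK3-labelled than in the vector-labelled libraries (-1.78 ± 0.53, adjusted p = 0.00456), a call lost with DESeq2 (0.0718), without vector-labelled replicate 2 (0.0776) and without ELK3-labelled replicate 2 (0.0832). Its vector-labelled over control ratio was 13.6 (95% counting interval 3.48 to 117), adjusted p = 0.000158. None of these 4 was called between the ELK3-labelled libraries and the controls, where the adjusted p ran from 0.106 for MMP13 to 0.708 for MMP7; without control replicate 2, MMP13 was called there (0.0485). The sizes rested on single libraries. Without control replicate 1, the fitted vector-labelled over control log2 fold change was 9.46 for MMP12, 7.91 for MMP7 and 2.68 for MMP13. Without control replicate 2 it was 4.95, 3.40 and 7.23 for the same genes, against 5.89, 4.34 and 3.65 with all libraries; a value against a lone control at 0 counts is no bound. ELK3-labelled over vector-labelled, MMP7 was at -4.33 without ELK3-labelled replicate 1 and -7.69 without ELK3-labelled replicate 2, against -4.99 with all, and MMP10 was at -3.34 without ELK3-labelled replicate 2. MMP7, MMP10 and MMP13 averaged below 5 CPM in every group and were picked for description after their values were seen.

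**Figure D2:**
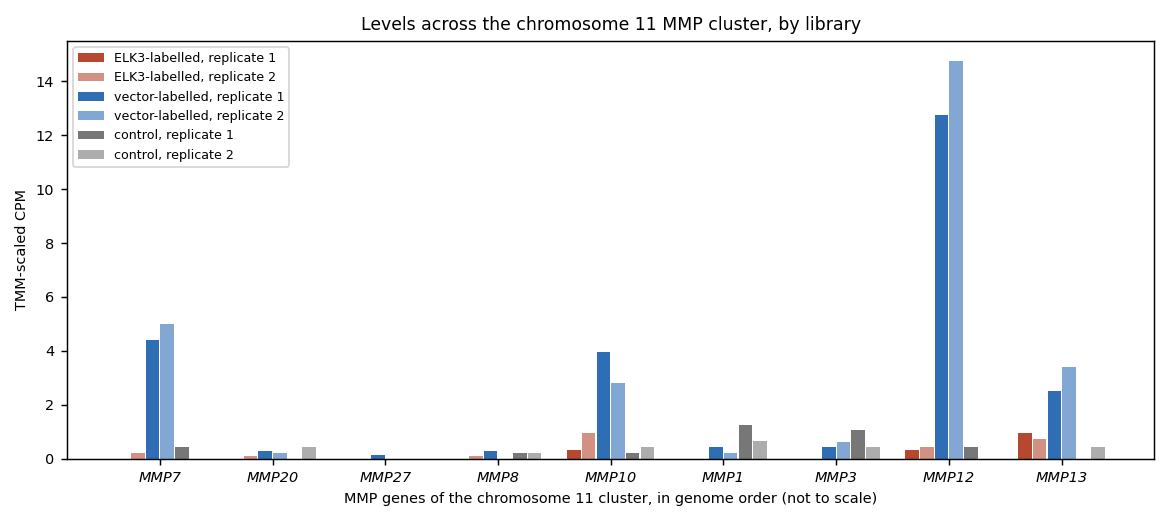
Level of each MMP gene of the chromosome 11 cluster (vertical axis, TMM-scaled CPM) in the 6 libraries, 1 bar per library, with genes in genome order but not to scale. The tall bars are the vector-labelled libraries at MMP7, MMP10, MMP12 and MMP13, with MMP12 at 12.7 and 14.8 CPM.

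The other genes of the cluster were near the floor. MMP1, the interstitial collagenase, had 0 and 0 counts in ELK3-labelled cells, 3 and 1 in vector-labelled cells and 6 and 3 in control cells, so it was at least 4.99-fold lower in the ELK3-labelled libraries than in the controls (floor of 3 counts over the group, with the control counts taken as exact). The exact 95% counting interval of its control over ELK3-labelled ratio began at 3.28. MMP3, stromelysin 1, had 0 and 0 counts in ELK3-labelled cells, 3 and 3 in vector-labelled cells and 5 and 2 in control cells, at least 3.88-fold lower on the same floor, with an interval that began at 2.4. MMP8, the neutrophil collagenase, MMP20, the enamel protease, and MMP27 had between 0 and 2 counts in every library. WTAPP1, a pseudogene on the opposite strand that overlaps MMP10, MMP1 and MMP3, had 0 and 0 counts in ELK3-labelled cells, 5 and 6 in vector-labelled cells and 1 and 0 in control cells; whether reads were counted by strand is not given in the sources used here. Of the 6 protein-coding genes within 500 kb of the cluster that the files list, none was highest in the vector-labelled libraries. YAP1, the Hippo pathway coactivator, had 52.2 and 49.7 CPM in ELK3-labelled cells, 25.8 and 30.5 CPM in vector-labelled cells and 117 and 106 CPM in control cells. TMEM123, next to MMP7, had 143 and 136 CPM in ELK3-labelled cells, 102 and 103 CPM in vector-labelled cells and 311 and 282 CPM in control cells. DCUN1D5, beyond MMP13, had 91.7 and 94.6 CPM in ELK3-labelled cells, 41 and 45.9 CPM in vector-labelled cells and 93.9 and 98.7 CPM in control cells. YAP1, TMEM123 and DCUN1D5 were lowest in the vector-labelled libraries. BIRC2, an inhibitor of apoptosis, had 72.8 and 75 CPM in ELK3-labelled cells, 82.2 and 86.8 CPM in vector-labelled cells and 239 and 241 CPM in control cells. BIRC3, its relative, had 5.08 and 5.62 CPM in ELK3-labelled cells, 7.77 and 4.79 CPM in vector-labelled cells and 41.1 and 42.7 CPM in control cells. DYNC2H1, a dynein chain of cilia, had 138 and 139 CPM in ELK3-labelled cells, 93.5 and 85 CPM in vector-labelled cells and 36.1 and 40.3 CPM in control cells. BIRC2 was lowest in the ELK3-labelled libraries, the plasmid groups overlapped for BIRC3, and DYNC2H1 was lowest in the controls. Of 10 markers of macrophages and neutrophils, which are known to make MMP12 and MMP8, 8 were tested. Of these, 3 were lower in the ELK3-labelled than in the vector-labelled libraries, beside 29.6% of all genes. The sums of the 10 markers were 80.8 and 85.7 CPM in ELK3-labelled cells, 116 and 107 CPM in vector-labelled cells and 125 and 134 CPM in control cells. Of the 10, 0 were at 0 in every library. CD68, one of the 3, had 4.6 and 5.2 CPM in ELK3-labelled cells, 10.7 and 7.39 CPM in vector-labelled cells and 25.2 and 32.4 CPM in control cells. The part of such cells in the MMP12 level was not tested.

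RefSeq promoters on GRCh38.p14, from 250 bases before to 50 bases after the start, were at hand for 27 of the 47 genes and were read for letters known from AP-1 and ETS sites. MMP7 (chr11:102530698-102530997, minus strand) and MMP10 (chr11:102780579-102780878, minus strand) are shown because both were high in the vector-labelled libraries, and MMP14 (chr14:22836335-22836634, plus strand) and TIMP1 (chrX:47582186-47582485, plus strand) because both were high in the controls. Each reads 5′ to 3′ along the gene, and capitals mark TGANTCA (AP-1) and CCGGAA or AGGAAG (ETS) on either strand.
MMP7: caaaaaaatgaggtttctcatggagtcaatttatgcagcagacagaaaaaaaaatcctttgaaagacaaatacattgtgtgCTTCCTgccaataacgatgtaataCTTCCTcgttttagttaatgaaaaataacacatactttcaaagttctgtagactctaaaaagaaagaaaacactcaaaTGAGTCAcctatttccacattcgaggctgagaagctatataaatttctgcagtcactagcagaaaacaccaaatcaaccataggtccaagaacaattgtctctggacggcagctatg
MMP10: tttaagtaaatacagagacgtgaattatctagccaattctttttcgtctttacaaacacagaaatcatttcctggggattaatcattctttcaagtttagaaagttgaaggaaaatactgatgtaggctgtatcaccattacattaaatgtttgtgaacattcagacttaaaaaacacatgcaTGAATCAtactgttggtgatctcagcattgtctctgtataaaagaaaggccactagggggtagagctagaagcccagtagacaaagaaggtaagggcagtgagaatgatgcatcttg
MMP14: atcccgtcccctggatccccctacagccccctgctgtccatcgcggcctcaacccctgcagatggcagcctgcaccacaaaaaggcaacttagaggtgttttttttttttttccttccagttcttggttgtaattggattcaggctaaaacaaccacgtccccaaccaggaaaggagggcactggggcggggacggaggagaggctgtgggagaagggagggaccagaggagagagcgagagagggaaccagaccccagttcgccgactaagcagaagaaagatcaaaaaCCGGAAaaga
TIMP1: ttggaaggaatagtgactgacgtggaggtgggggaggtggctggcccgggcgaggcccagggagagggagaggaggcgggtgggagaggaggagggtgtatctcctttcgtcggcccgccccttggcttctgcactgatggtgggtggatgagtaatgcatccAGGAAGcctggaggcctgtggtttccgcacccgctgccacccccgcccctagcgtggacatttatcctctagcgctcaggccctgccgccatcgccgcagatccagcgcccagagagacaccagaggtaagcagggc
The AP-1 letters TGANTCA start at the same place in MMP7 and MMP10, 67 bases before the start. They were found in 4 of the 27 genes (ADAMTS12, MMP7, MMP20 and MMP10) and in 7.71% of the 35116 promoters of the table. MMP20 lies in the same cluster and was at 0 to 2 counts in every library. MMP12 and MMP13 were also high in the vector-labelled libraries and are not shown. Neither is among the 4 genes, and whether their promoters were among the 27 is not stated here. The AP-1 letters are thus not a trait shown for all cluster genes that were high there. MMP7 also holds AGGAAG on the opposite strand at 2 places, and TIMP1 holds it on the strand shown at 1. It was found in 6 of the 27 genes and in 33.6% of all promoters. MMP14 holds CCGGAA at 1 place, which was found in 2 of the 27 genes and in 17.2% of all promoters. TATAAA, which is not in capitals here, was found in 7 of the 27 genes (MMP7, MMP8, MMP10, MMP20, MMP21, MMP26 and ADAMTS10) and in 11.5% of all promoters. The CArG box, to which SRF binds, was in 0 of the 27 and in 1.29% of all promoters. The motifs share no letters in the 4 sequences shown, and a match describes letters, not binding. Each of the 4 holds at least 1 of the motifs in capitals, so they do not stand for the 27 genes. ADAMTS6 was also high in the controls, at 64.7 and 62.9 CPM. Its promoter was read but is not shown, and it holds none of the motifs in capitals.

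Among the other secreted MMPs, the gelatinase MMP2 was higher in both plasmid groups than in the controls. MMP2, on chromosome 16, had 5.24 and 3.71 CPM in ELK3-labelled cells, 6.74 and 6.19 CPM in vector-labelled cells and 0.417 and 0.858 CPM in control cells. The fit gave log2 fold changes of 2.75 ± 0.52, adjusted p = 2.69e-05 for ELK3-labelled over control and 3.31 ± 0.50, adjusted p = 4.21e-07 for vector-labelled over control. The plasmid groups did not pass the test against each other (-0.57 ± 0.30, adjusted p = 0.105). MMP9, the other gelatinase, was too weak to test, with 3 and 17 counts in ELK3-labelled cells, 7 and 5 in vector-labelled cells and 1 and 1 in control cells. MMP11, stromelysin 3, which furin activates inside the cell, had 34 and 28 counts in ELK3-labelled cells, 16 and 10 in vector-labelled cells and 5 and 5 in control cells. It was higher in the ELK3-labelled libraries than in the controls (1.91 ± 0.51, adjusted p = 0.00141) and did not pass against the vector-labelled libraries (adjusted p = 0.0645), but did without ELK3-labelled replicate 2 (0.025). CHCHD10, which overlaps MMP11 on the other strand, had 411 and 429.8 CPM in ELK3-labelled cells, 323 and 344 CPM in vector-labelled cells and 312 and 283 CPM in control cells. MMP19 had 16 and 35 counts in ELK3-labelled cells, 15 and 13 in vector-labelled cells and 19 and 24 in control cells; it was lower in the vector-labelled libraries than in the controls (-0.93 ± 0.40, adjusted p = 0.0371), a call lost with library totals (0.0716), with DESeq2 (0.14), without control replicate 2 (0.202), without vector-labelled replicate 1 (0.162) and without vector-labelled replicate 2 (0.0553).

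MMP23A is annotated as a pseudogene close to the coding gene MMP23B on chromosome 1. It had 5.55 and 4.46 CPM in ELK3-labelled cells, 7.91 and 10.6 CPM in vector-labelled cells and 1.46 and 0.429 CPM in control cells, while MMP23B was at 0 counts in all 6 libraries. The copies are near-identical, and reads of either could be counted under MMP23A. Against the controls its log2 fold changes were 2.35 ± 0.47, adjusted p = 5.85e-05 in ELK3-labelled and 3.23 ± 0.44, adjusted p = 5.29e-08 in vector-labelled libraries. It was lower in the ELK3-labelled than in the vector-labelled libraries (-0.89 ± 0.28, adjusted p = 0.00739), a call lost with DESeq2 (0.0862), without vector-labelled replicate 2 (0.104) and without ELK3-labelled replicate 2 (0.0964). Without control replicate 1, the fold changes over the controls were 3.46 in ELK3-labelled and 4.33 in vector-labelled libraries, and without control replicate 2 they were 1.73 and 2.60 on the log2 scale. MMP26 was also at 0 counts in every library, and MMP21 and MMP28 had at most 3 counts in any.

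Of the 6 membrane-type MMPs, MMP14 and MMP24 were far lower in both plasmid groups than in the controls, and MMP15 differed between the plasmid groups. MMP14, the membrane-type collagenase that activates MMP2, lies on chromosome 14 and had 2.22 and 1.7 CPM in ELK3-labelled cells, 2.78 and 3.39 CPM in vector-labelled cells and 51.9 and 36 CPM in control cells. The controls differed from each other more than the plasmid libraries did, but no plasmid library came near them. It fell 22.8-fold in the ELK3-labelled libraries (-4.51 ± 0.24, adjusted p = 2.27e-17) and 14.4-fold in the vector-labelled libraries (-3.84 ± 0.24, adjusted p = 6.25e-16) against the controls. ELK3-labelled over vector-labelled it was -0.67 ± 0.39, adjusted p = 0.14. MMP24, on chromosome 20, had 14.3 and 15.7 CPM in ELK3-labelled cells, 14.1 and 13.8 CPM in vector-labelled cells and 41.9 and 42.7 CPM in control cells. Its log2 fold changes were -1.49 ± 0.15, adjusted p = 1.75e-10 for ELK3-labelled over control, -1.60 ± 0.16, adjusted p = 6.86e-11 for vector-labelled over control and 0.11 ± 0.17 between the plasmid groups (adjusted p = 0.587). The listed antisense gene MMP24-AS1 had 36.3 and 33.8 CPM in ELK3-labelled cells, 33.3 and 36.9 CPM in vector-labelled cells and 86.2 and 81.9 CPM in control cells. It moved alongside MMP24 (-1.26 ± 0.11 and -1.27 ± 0.12 against the controls), and without a statement on strand the reads of the pair cannot be told apart.

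MMP15, a second membrane-type MMP on chromosome 16, had 8.57 and 7 CPM in ELK3-labelled cells, 2.05 and 2.2 CPM in vector-labelled cells and 3.96 and 5.58 CPM in control cells. The 3 groups did not overlap, and the vector-labelled libraries were lowest. ELK3-labelled over vector-labelled, it rose 3.62-fold (1.85 ± 0.33, adjusted p = 1.35e-05). The calls against the controls were less firm. ELK3-labelled over control was 0.69 ± 0.30, adjusted p = 0.043, and that call was lost with DESeq2 (0.193), with no filter (0.0516), without control replicate 1 (0.299), without ELK3-labelled replicate 1 (0.192) and without ELK3-labelled replicate 2 (0.0513). Vector-labelled over control was -1.16 ± 0.39, adjusted p = 0.00801, and that call was lost without control replicate 2 (0.0933). MMP25, with 23 and 36 counts in ELK3-labelled cells, 24 and 20 in vector-labelled cells and 15 and 17 in control cells, was not called in any comparison, with log2 fold changes of 0.01 ± 0.34, 0.15 ± 0.36 and 0.14 ± 0.38. MMP25-AS1, listed as its antisense gene, was higher in both plasmid groups, with log2 fold changes over the controls of 1.60 ± 0.37, adjusted p = 0.000294 in ELK3-labelled and 2.04 ± 0.36, adjusted p = 6.08e-06 in vector-labelled libraries. MMP16 was not called either, with 5 to 19 counts per library, and MMP17 had 8 and 2 counts in ELK3-labelled cells, 1 and 1 in vector-labelled cells and 0 and 0 in control cells.

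**Figure D3:**
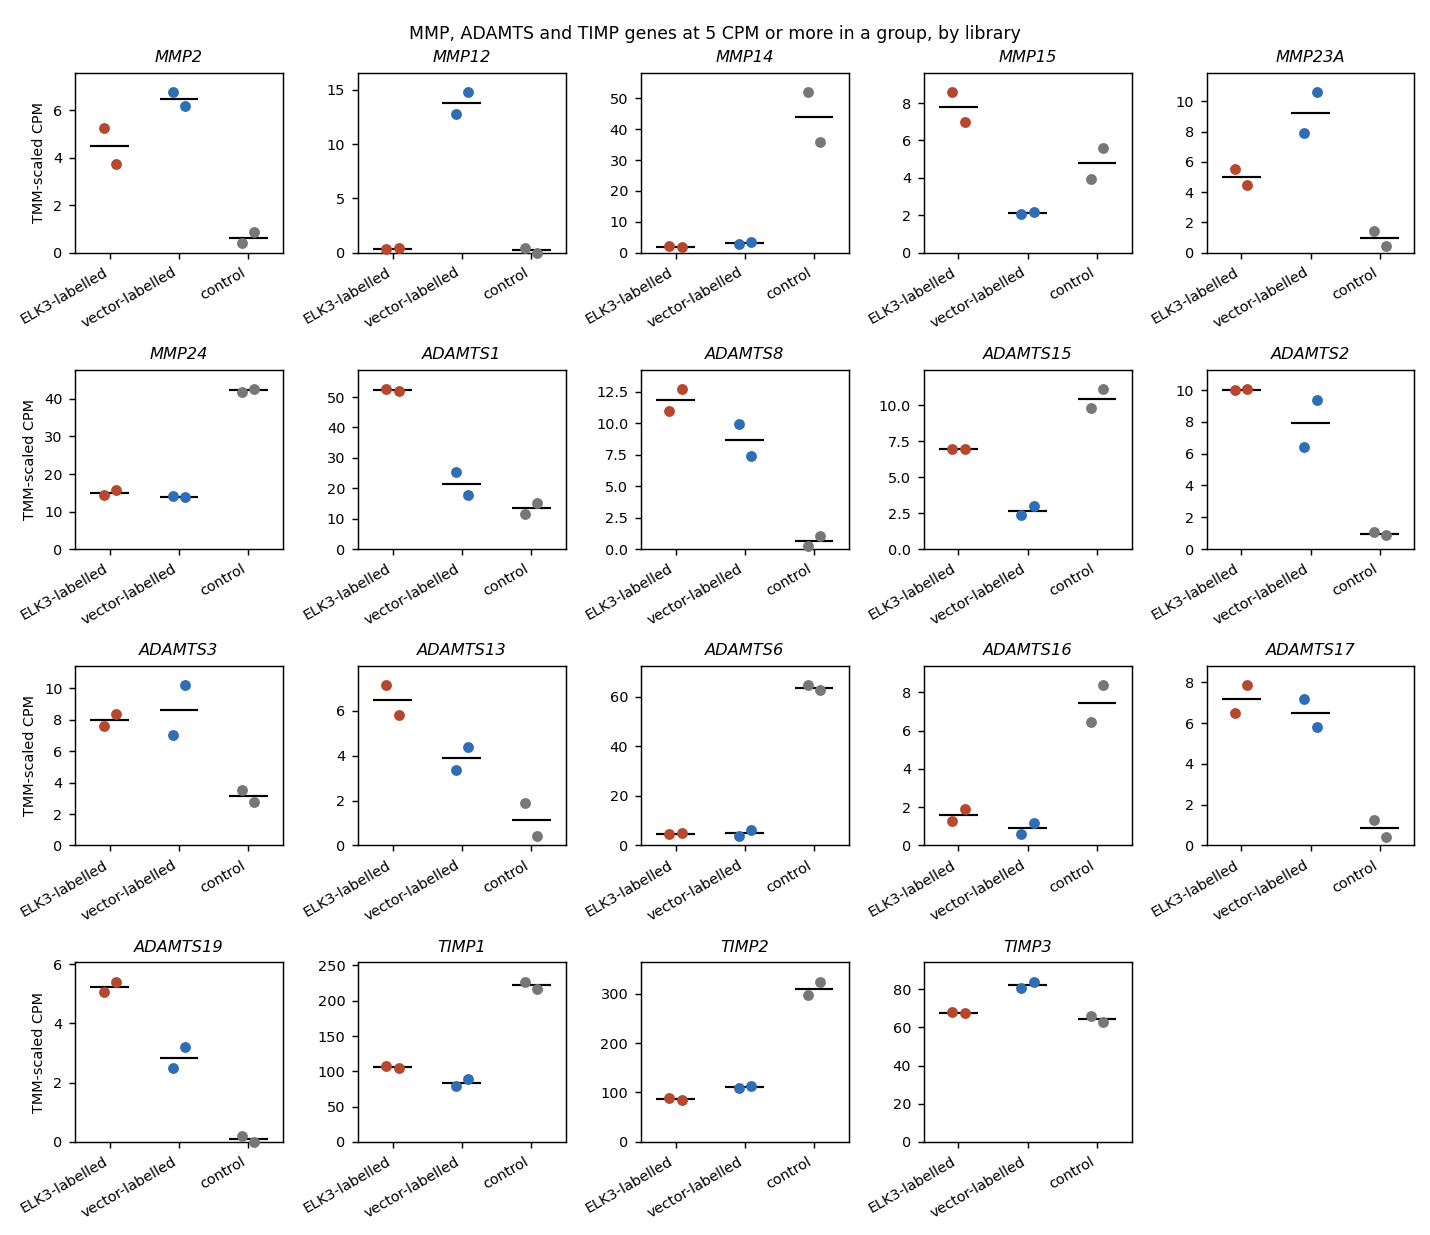
Level of the 19 genes that averaged at least 5 CPM in a group (vertical axes, TMM-scaled CPM from 0), 1 point per library and a line at the mean of each group of 2. MMP14, MMP24, ADAMTS6, TIMP1 and TIMP2 are highest in the controls, MMP12 is high in the vector-labelled libraries, and ADAMTS1 is highest in the ELK3-labelled libraries at 52.7 and 51.9 CPM.

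Of the 7 ADAMTS genes known for cleaving proteoglycans, all were tested. Between the ELK3-labelled and the vector-labelled libraries 3 were higher (ADAMTS1, ADAMTS9 and ADAMTS15) and 1 lower (ADAMTS4), beside 30% and 29.6% of all genes. The last of these passed the filter through the vector-labelled libraries alone. ADAMTS1, on chromosome 21, which cuts versican and aggrecan, had 52.7 and 51.9 CPM in ELK3-labelled cells, 25.2 and 17.8 CPM in vector-labelled cells and 11.7 and 15 CPM in control cells. The groups did not overlap, and the ELK3-labelled libraries, with the least ELK3, were highest. It rose 2.39-fold over the vector-labelled libraries (1.26 ± 0.14, adjusted p = 4.3e-09) and 3.92-fold over the controls (1.97 ± 0.16, adjusted p = 1.87e-12). Vector-labelled over control, it was 0.71 ± 0.19, adjusted p = 0.00104, a call lost without vector-labelled replicate 1 (0.111). ADAMTS15, on chromosome 11 outside the cluster, had 6.98 and 7 CPM in ELK3-labelled cells, 2.34 and 2.99 CPM in vector-labelled cells and 9.81 and 11.2 CPM in control cells. It was higher in the ELK3-labelled than in the vector-labelled libraries (1.41 ± 0.31, adjusted p = 0.000187) and lower in the vector-labelled libraries than in the controls (-1.99 ± 0.31, adjusted p = 6.58e-07). ELK3-labelled over control, it was -0.58 ± 0.24, adjusted p = 0.0388, and that call was lost with library totals (0.133), with DESeq2 (0.183), with no filter (0.0562), without control replicate 1 (0.0584), without control replicate 2 (0.19), without ELK3-labelled replicate 1 (0.092) and without ELK3-labelled replicate 2 (0.119).

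ADAMTS8, on chromosome 11 outside the cluster, was higher in both plasmid groups. It had 10.9 and 12.7 CPM in ELK3-labelled cells, 9.97 and 7.39 CPM in vector-labelled cells and 0.209 and 1.07 CPM in control cells. ELK3-labelled over control, its log2 fold change was 4.19 ± 0.43, adjusted p = 2.15e-10, and vector-labelled over control it was 3.75 ± 0.46, adjusted p = 8.42e-09. Without control replicate 1 the values were 3.45 and 2.999, and without control replicate 2 they were 5.71 and 5.25, from 6 control counts in all. Between the plasmid groups it did not pass (0.44 ± 0.23, adjusted p = 0.106). ADAMTS4 and ADAMTS20 passed the filter through the vector-labelled libraries alone, so their fold changes and p-values describe these libraries and support nothing further. ADAMTS4, an aggrecanase, had 7 and 8 counts in ELK3-labelled cells, 18 and 20 in vector-labelled cells and 0 and 3 in control cells. The vector-labelled libraries were highest. It was higher in the vector-labelled libraries than in the controls, with a ratio of 10.1 (95% counting interval 3.21 to 51.2) and an adjusted p = 0.000205. It was lower in the ELK3-labelled than in the vector-labelled libraries (-1.74 ± 0.52, adjusted p = 0.00424), a call lost with DESeq2 (0.0623), without vector-labelled replicate 2 (0.0904) and without ELK3-labelled replicate 2 (0.0769). ELK3-labelled over control it was not called (adjusted p = 0.143), but it was without control replicate 2 (0.0312). ADAMTS20 had 6 and 31 counts in ELK3-labelled cells, 21 and 16 in vector-labelled cells and 0 and 2 in control cells. The 2 ELK3-labelled libraries differed widely. ELK3-labelled over control, its ratio was 11.1 (95% counting interval 2.87 to 95.3), adjusted p = 0.00135, a call lost without ELK3-labelled replicate 2 (0.16). Vector-labelled over control, its ratio was 14.8 (95% counting interval 3.81 to 127), adjusted p = 0.000185. ADAMTS9 was higher in the ELK3-labelled than in the vector-labelled libraries (21 and 34 counts against 7 and 12, 1.09 ± 0.44, adjusted p = 0.033), a call lost with DESeq2 (0.181), without vector-labelled replicate 1 (0.411), without ELK3-labelled replicate 1 (0.0682) and without ELK3-labelled replicate 2 (0.148). Without vector-labelled replicate 2 it was at 1.76. The vector-labelled over control log2 fold changes of ADAMTS4 and ADAMTS20 were 2.28 and 2.80 without control replicate 1 and 7.39 and 7.34 without control replicate 2, against 3.27 and 3.76 with all. ELK3-labelled over control, ADAMTS20 was at 2.36 without control replicate 1, at 6.90 without the other control and at 2.06 without ELK3-labelled replicate 2, against 3.32 with all. ADAMTS5 was not called, with 3 to 17 counts per library.

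ADAMTS2 and ADAMTS3 remove the N-terminal propeptide of fibrillar procollagens, and both were higher in the plasmid groups. ADAMTS2, on chromosome 5, had 10.0 and 10.1 CPM in ELK3-labelled cells, 6.45 and 9.38 CPM in vector-labelled cells and 1.04 and 0.858 CPM in control cells. It was 10.4-fold higher in the ELK3-labelled libraries (3.37 ± 0.39, adjusted p = 4.06e-09) and 8.01-fold higher in the vector-labelled libraries (adjusted p = 1.18e-07) than in the controls. ADAMTS3, on chromosome 4, had 7.62 and 8.38 CPM in ELK3-labelled cells, 7.03 and 10.2 CPM in vector-labelled cells and 3.55 and 2.79 CPM in control cells, with log2 fold changes of 1.34 ± 0.31, adjusted p = 0.000388 and 1.41 ± 0.32, adjusted p = 0.000222 over the controls. The plasmid groups overlapped for ADAMTS3 and were not called for either gene (adjusted p = 0.184 and adjusted p = 0.824). The third gene of this class, ADAMTS14, had 0 to 7 counts per library and was not tested. ADAMTS13, which cuts von Willebrand factor, lies on chromosome 9 and had 7.14 and 5.84 CPM in ELK3-labelled cells, 3.37 and 4.39 CPM in vector-labelled cells and 1.88 and 0.429 CPM in control cells. It was higher in the ELK3-labelled libraries (2.44 ± 0.45, adjusted p = 1.49e-05) and in the vector-labelled libraries (1.70 ± 0.50, adjusted p = 0.00314) than in the controls; the second call was lost without control replicate 2 (0.101). ELK3-labelled over vector-labelled, it just missed the threshold (0.74 ± 0.33, adjusted p = 0.0504), and it passed with library totals (0.0453), with no filter (0.0303), with only the 4 libraries compared (0.0326), without control replicate 1 (0.0308) and without control replicate 2 (0.0289). Without control replicate 1, its log2 fold changes over the controls were 3.84 in ELK3-labelled and 3.08 in vector-labelled libraries, and without control replicate 2 they were 1.75 and 1.00. REXO4, on the other strand and overlapping ADAMTS13, had 184 and 188 CPM in ELK3-labelled cells, 71.5 and 68.9 CPM in vector-labelled cells and 92 and 88.8 CPM in control cells; its part in the ADAMTS13 counts was not tested.

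Among the other ADAMTS genes, ADAMTS6, ADAMTS12 and ADAMTS16 were lower in both plasmid groups than in the controls. ADAMTS12 and ADAMTS16 passed the filter through the controls alone, so their fold changes and p-values describe these libraries and support nothing further. ADAMTS6, on chromosome 5, had 4.44 and 4.99 CPM in ELK3-labelled cells, 3.81 and 6.19 CPM in vector-labelled cells and 64.7 and 62.9 CPM in control cells. It fell 13.3-fold in the ELK3-labelled libraries (-3.74 ± 0.18, adjusted p = 1.04e-18) and 13.1-fold in the vector-labelled libraries (-3.71 ± 0.19, adjusted p = 4.22e-18) relative to the controls. The plasmid groups overlapped (-0.02 ± 0.27, adjusted p = 0.945). ADAMTS16, also on chromosome 5, had 1.27 and 1.91 CPM in ELK3-labelled cells, 0.586 and 1.2 CPM in vector-labelled cells and 6.47 and 8.37 CPM in control cells, with log2 fold changes of -2.16 ± 0.38, adjusted p = 9.7e-06 and -3.10 ± 0.46, adjusted p = 3.92e-07 against the controls. ADAMTS12, which cuts cartilage oligomeric matrix protein, had 1 and 1 counts in ELK3-labelled cells, 2 and 0 in vector-labelled cells and 12 and 17 in control cells. It was lower in both plasmid groups, by ratios of control over plasmid group of 24.1 (95% counting interval 6.1 to 209) for the ELK3-labelled and 18.1 (95% counting interval 4.59 to 157) for the vector-labelled libraries (adjusted p = 1.14e-05 and 4.29e-05). Vector-labelled over control, its fitted log2 fold change was -7.22 without vector-labelled replicate 1 and -3.32 without vector-labelled replicate 2, against -4.03 with all. ADAMTS6, ADAMTS12, ADAMTS16 and ADAMTS19 all lie on chromosome 5 but are not neighbours.

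ADAMTS17, on chromosome 15, had 6.51 and 7.85 CPM in ELK3-labelled cells, 7.18 and 5.79 CPM in vector-labelled cells and 1.25 and 0.429 CPM in control cells, with log2 fold changes of 3.07 ± 0.44, adjusted p = 2.72e-07 and 2.92 ± 0.46, adjusted p = 9.92e-07 over the controls. Without control replicate 1 these were 4.02 and 3.86. The plasmid groups overlapped. ADAMTS19 had 5.08 and 5.41 CPM in ELK3-labelled cells, 2.49 and 3.19 CPM in vector-labelled cells and 0.209 and 0 CPM in control cells, where it had 1 count in all. The 3 groups did not overlap. ELK3-labelled over control, the ratio was 49.9 (95% counting interval 8.71 to 1994), adjusted p = 1.04e-07. Vector-labelled over control, the ratio was 26.4 (95% counting interval 4.41 to 1073), adjusted p = 2.44e-05. ELK3-labelled over vector-labelled, it was 0.91 ± 0.35, adjusted p = 0.0276, a call lost with DESeq2 (0.205), without vector-labelled replicate 1 (0.197), without ELK3-labelled replicate 1 (0.0644) and without ELK3-labelled replicate 2 (0.147). Its fitted log2 fold changes over the controls were 5.39 in ELK3-labelled and 4.48 in vector-labelled libraries; they were 8.09 and 7.17 without control replicate 1, which leaves a control at 0 counts, and 4.53 and 3.61 without control replicate 2. ADAMTS18 had 11 and 4 counts in ELK3-labelled cells, 18 and 9 in vector-labelled cells and 1 and 1 in control cells. It passed the filter through the vector-labelled libraries alone, so its fold changes and p-values describe these libraries and support nothing further. It was higher in the vector-labelled libraries than in the controls, with a ratio of 10.8 (95% counting interval 2.71 to 93.6) and an adjusted p = 0.00129. Its ELK3-labelled counts were not called against either group (adjusted p = 0.0648 against the vector-labelled libraries and 0.0733 against the controls). They were called with only the 4 libraries compared (0.0481) and without ELK3-labelled replicate 1 (0.021) against the vector-labelled libraries, and without ELK3-labelled replicate 2 (0.021) against the controls. ADAMTS10 and ADAMTS7 were too weak to test, with 0 to 12 and 1 to 6 counts per library.

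**Figure D4:**
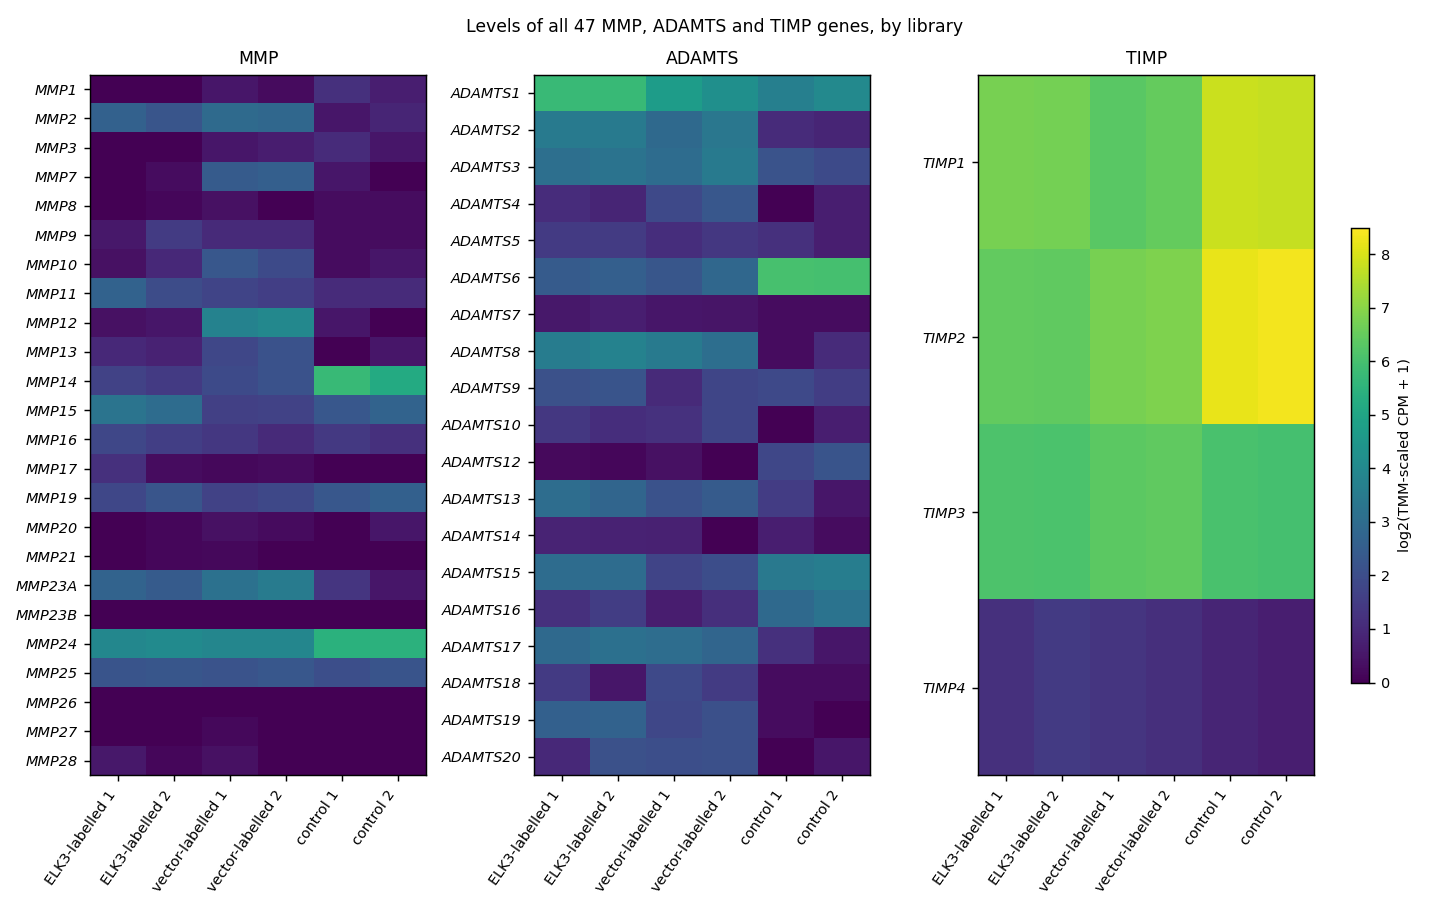
Level of all 47 genes in each of the 6 libraries, as colour on a log2(TMM-scaled CPM + 1) scale, with 1 panel per family and ELK3-labelled, vector-labelled and control libraries from left to right. TIMP1 and TIMP2 are brighter in the controls than in the plasmid libraries, and the 15 untested genes, among them MMP23B and MMP26 at 0 in every library, are dark throughout.

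TIMP1, TIMP2 and TIMP3 had the most counts of the 47 genes and so the smallest errors. TIMP1, on the X chromosome, had 108 and 105 CPM in ELK3-labelled cells, 79.1 and 88.4 CPM in vector-labelled cells and 227 and 217 CPM in control cells. No plasmid library came near the controls, and TIMP1 was 2.09-fold lower in the ELK3-labelled libraries (-1.06 ± 0.09, adjusted p = 1.83e-12) and 2.66-fold lower in the vector-labelled libraries (-1.41 ± 0.09, adjusted p = 2.32e-15). ELK3-labelled over vector-labelled, it was 0.35 ± 0.09, adjusted p = 0.00184, a call lost without vector-labelled replicate 1 (0.0608). TIMP2, on chromosome 17, had 87.9 and 84.3 CPM in ELK3-labelled cells, 108 and 114 CPM in vector-labelled cells and 296 and 324 CPM in control cells. It was 3.61-fold lower in the ELK3-labelled libraries (-1.85 ± 0.09, adjusted p = 8.35e-19) and 2.8-fold lower in the vector-labelled libraries (-1.49 ± 0.09, adjusted p = 2.01e-16) than in the controls. Between the plasmid groups it was lower in the ELK3-labelled libraries (-0.37 ± 0.09, adjusted p = 0.000957), so that TIMP1 and TIMP2 differed there in opposite directions. MMP14 and TIMP2, which act together on MMP2, were thus both lower in the plasmid groups than in the controls, while MMP2 was higher. MMP2 had passed the filter through the plasmid groups alone.

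TIMP3, which binds the matrix and also blocks ADAMTS proteases, lies on chromosome 22. It had 68.1 and 67.6 CPM in ELK3-labelled cells, 80.5 and 84 CPM in vector-labelled cells and 65.9 and 62.9 CPM in control cells. The vector-labelled libraries were highest, 1.28-fold over the controls (0.35 ± 0.10, adjusted p = 0.0029). ELK3-labelled over vector-labelled, it was -0.28 ± 0.10, adjusted p = 0.0148, a call lost with DESeq2 (0.0757), with no filter (0.0782), without vector-labelled replicate 2 (0.105), without ELK3-labelled replicate 1 (0.0607) and without ELK3-labelled replicate 2 (0.0872). ELK3-labelled over control, it did not pass (0.07 ± 0.10, adjusted p = 0.542), but it did with library totals (0.0487). Differences of this size were also seen in 15 liver genes such as ALB, which every library held. Of these, 15 of 15 were lower in the ELK3-labelled than in the vector-labelled libraries (median log2 fold change -0.32), beside 29.6% of all genes. ELK3-labelled over control, 14 were lower (median -0.29), beside 30.8% of all genes. The sums of the vector-labelled and control libraries overlapped. The sums were 10760.5 and 11284 CPM in ELK3-labelled cells, 14271 and 13271 CPM in vector-labelled cells and 13220.0 and 13638 CPM in control cells, and their part in the TIMP levels was not tested. In these bulk libraries fewer cells of a type and less RNA per cell cannot be told apart. TIMP4 was too weak to test, with 8 and 16 counts in ELK3-labelled cells, 10 and 6 in vector-labelled cells and 4 and 3 in control cells. Summed over the 4 TIMP genes, the level was 265 and 258 CPM in ELK3-labelled cells, 269 and 287 CPM in vector-labelled cells and 590.2 and 605 CPM in control cells.

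Genes that activate, restrain or anchor these proteases were read from a list of 24, of which 23 were tested. In the ELK3-labelled libraries, 15 were lower and 4 higher than in the controls; in the vector-labelled libraries, 12 were lower and 6 higher. Between the plasmid groups, 4 were higher and 10 lower in the ELK3-labelled libraries. Of all genes, 30% were higher and 29.6% lower between the plasmid groups, 31.8% and 30.8% in ELK3-labelled over control, and 37% and 35.3% in vector-labelled over control. The list's median log2 fold changes were -0.27, -0.73 and -0.54 in these comparisons, beside -0.02, 0.02 and 0.05 for all genes. PLAUR, the urokinase receptor, had 36.3 and 36.7 CPM in ELK3-labelled cells, 37.1 and 41.1 CPM in vector-labelled cells and 312 and 332 CPM in control cells. Both plasmid groups lay far below the controls. SPOCK1, a proteoglycan of this list, was picked after its values were seen because it followed the pattern of MMP12. It had 1.9 and 1.38 CPM in ELK3-labelled cells, 13.8 and 14.6 CPM in vector-labelled cells and 0.209 and 0 CPM in control cells (ELK3-labelled over vector-labelled -3.13 ± 0.31, adjusted p = 1.72e-10).

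Of 12 ADAM proteases, the membrane-bound relatives that shed surface proteins, 10 were tested, and 6 were lower and 2 higher in the ELK3-labelled libraries than in the controls. In the vector-labelled libraries 6 were lower and 3 higher, and between the plasmid groups 2 were higher and 2 lower in the ELK3-labelled libraries. The shares of all genes higher and lower were 30% and 29.6% between the plasmid groups. They were 31.8% and 30.8% in ELK3-labelled over control, and 37% and 35.3% in vector-labelled over control. The ADAM list's medians were -0.07, -1.46 and -1.40 in ELK3-labelled over vector-labelled, ELK3-labelled over control and vector-labelled over control. ADAM17, which releases TNF and EGF receptor ligands, had 24.9 and 25 CPM in ELK3-labelled cells, 11.7 and 13.6 CPM in vector-labelled cells and 72.8 and 68.2 CPM in control cells. It was higher in the ELK3-labelled than in the vector-labelled libraries (0.99 ± 0.16, adjusted p = 1.59e-06). ADAM10, its close relative, had 30.5 and 32.4 CPM in ELK3-labelled cells, 21.7 and 21.4 CPM in vector-labelled cells and 101 and 102 CPM in control cells and differed likewise between the plasmid groups (0.55 ± 0.13, adjusted p = 0.000472). Of 6 ADAMTS-like genes, which lack the protease domain, 5 were tested, and 1 was higher and 2 lower in the ELK3-labelled than in the vector-labelled libraries. Against the controls, 1 was higher and 3 lower in the ELK3-labelled libraries, and 2 were higher and 2 lower in the vector-labelled libraries. Of all genes, the shares higher and lower between the plasmid groups were 30% and 29.6%, with 31.8% and 30.8% in ELK3-labelled over control and 37% and 35.3% in vector-labelled over control. ADAMTSL5, a fibrillin-binding member, had 4.76 and 4.35 CPM in ELK3-labelled cells, 0.586 and 0.998 CPM in vector-labelled cells and 8.76 and 10.5 CPM in control cells (2.54 ± 0.45, adjusted p = 1.22e-05 for ELK3-labelled over vector-labelled).

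Of 24 matrix proteins known to be cut by the 2 protease families, 19 were tested. In the ELK3-labelled libraries 8 were higher and 7 lower than in the controls, in the vector-labelled libraries 11 were higher and 6 lower, and between the plasmid groups 2 were higher and 8 lower in the ELK3-labelled libraries. Of all genes, 30% and 29.6% were higher and lower between the plasmid groups, 31.8% and 30.8% in ELK3-labelled over control and 37% and 35.3% in vector-labelled over control. VCAN, or versican, a substrate of ADAMTS1, had 92 and 83.5 CPM in ELK3-labelled cells, 38 and 33.9 CPM in vector-labelled cells and 10.6 and 10.3 CPM in control cells. Its groups stood in the order of those of ADAMTS1, and it was higher in the ELK3-labelled than in the vector-labelled libraries (1.28 ± 0.11, adjusted p = 9.96e-12). LAMB3, a chain of the basement membrane laminin that MMP14 is known to cut, had 4.6 and 3.82 CPM in ELK3-labelled cells, 8.35 and 6.99 CPM in vector-labelled cells and 165 and 167 CPM in control cells (-5.32 ± 0.14, adjusted p = 1.03e-25 for ELK3-labelled over control). COL7A1, the anchoring fibril collagen, had 1.59 and 0.531 CPM in ELK3-labelled cells, 1.61 and 3.39 CPM in vector-labelled cells and 41.1 and 25.3 CPM in control cells. COL6A1, a microfibril collagen, ran the other way, with 133 and 123 CPM in ELK3-labelled cells, 208 and 225 CPM in vector-labelled cells and 53 and 50.8 CPM in control cells.

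Of 19 AP-1 and ETS factors, 18 were tested. In the ELK3-labelled libraries 11 were lower and 3 higher than in the controls; 11 were lower and 5 higher in the vector-labelled libraries. Between the plasmid groups, 6 were higher and 7 lower in the ELK3-labelled libraries. Of all genes, 30% were higher and 29.6% lower between the plasmid groups. The shares were 31.8% and 30.8% in ELK3-labelled over control, and 37% and 35.3% in vector-labelled over control. ETV5, an ETS factor of the PEA3 group, had 6.03 and 4.99 CPM in ELK3-labelled cells, 73 and 68.7 CPM in vector-labelled cells and 97.8 and 96.5 CPM in control cells, with a log2 fold change of -3.71 ± 0.15, adjusted p = 3.01e-20 between the plasmid groups. ELF1, another ETS factor, had 28.9 and 31.6 CPM in ELK3-labelled cells, 145 and 131 CPM in vector-labelled cells and 43 and 49.6 CPM in control cells (-2.18 ± 0.11, adjusted p = 8.82e-18 between the plasmid groups). ETS1 had 32.5 and 33.3 CPM in ELK3-labelled cells, 48.4 and 45.3 CPM in vector-labelled cells and 153 and 141 CPM in control cells. FOSL1, an AP-1 subunit, had 6.51 and 7.96 CPM in ELK3-labelled cells, 4.98 and 4.79 CPM in vector-labelled cells and 188 and 193 CPM in control cells. Other AP-1 subunits, picked after their values were seen, differed in both directions between the plasmid groups: JUN (-0.66 ± 0.08, adjusted p = 1.56e-08) and JUND (-0.29 ± 0.09, adjusted p = 0.00615) were lower in the ELK3-labelled libraries, and FOS (1.04 ± 0.16, adjusted p = 1.39e-06) and FOSB (0.63 ± 0.16, adjusted p = 0.000743) were higher.

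Markers of other cell types that express these families were read beside them. The shares of all genes were 30% higher and 29.6% lower between the plasmid groups. They were 31.8% and 30.8% in ELK3-labelled over control, and 37% and 35.3% in vector-labelled over control. Of 10 fibroblast markers, 7 were tested. Between the plasmid groups 1 was higher and 1 lower in the ELK3-labelled libraries, while relative to the controls 3 were higher and 1 lower in the ELK3-labelled and 3 were higher and 0 lower in the vector-labelled libraries. Their sums were 90.3 and 81.7 CPM in ELK3-labelled cells, 101 and 85.4 CPM in vector-labelled cells and 58.2 and 59.4 CPM in control cells. MMP2 and ADAMTS2, which fibroblasts make, were higher in the same groups. COL1A1 had 32.4 and 25.3 CPM in ELK3-labelled cells, 41.3 and 32.7 CPM in vector-labelled cells and 11.5 and 15.7 CPM in control cells, and COL3A1 had 23.6 and 24.2 CPM in ELK3-labelled cells, 16 and 14.8 CPM in vector-labelled cells and 5.22 and 4.08 CPM in control cells. DCN, with 20.0 and 17.3 CPM in ELK3-labelled cells, 24.2 and 18.4 CPM in vector-labelled cells and 24.8 and 25.1 CPM in control cells, was lower in ELK3-labelled libraries than in the controls (-0.43 ± 0.17, adjusted p = 0.0241), and the list's median log2 fold change was -0.12 for ELK3-labelled over control. The part of fibroblast RNA in the protease levels was not tested. Of 8 endothelial markers, 6 were tested, and 1 was lower in the ELK3-labelled than in the vector-labelled libraries, with sums of 22.4 and 19.9 CPM in ELK3-labelled cells, 29.9 and 26.4 CPM in vector-labelled cells and 51.3 and 47.2 CPM in control cells. Of 8 lymphocyte markers, 6 were tested, and 2 were lower in the ELK3-labelled than in the vector-labelled libraries, with sums of 60.0 and 68.2 CPM in ELK3-labelled cells, 86.2 and 84.4 CPM in vector-labelled cells and 82.4 and 83.7 CPM in control cells.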

How the data were processed

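RNA of 6 libraries was measured, and per the deposited files the values are raw counts per gene symbol and library, not scaled. Per the submitters' processing notes, Bowtie2, edgeR and hg19 were used by the authors; the counting tool, annotation and strand setting are not given in the sources used here. Each file held 25737 lines and 24462 symbols; lines sharing a symbol (286 symbols, 0 of them a member) were summed. In R 4.3.3, genes passing filterByExpr (15386) were scaled by TMM and tested with edgeR 4.0.16 (robust quasi-likelihood, 1 mean per group, all 6 libraries, 3 residual degrees of freedom), two-sided, with Benjamini-Hochberg adjustment over all genes and a threshold of 0.05. The SE is the log2 fold change divided by the root of the F statistic. CPM values use TMM-scaled library sizes, with n = 2 per group. Ratios from few counts have exact 95% conditional binomial intervals. The rule was to name genes that were tested and at 5 CPM or more in a group, besides up to 4 per partner list. Weaker tested members are also described, by counts and with tests. Some partner genes beyond the 4 were picked after their values were seen. Untested members are given by counts. Members and lists were chosen with earlier results of these data known. GENCODE 29 and RefSeq (GRCh38.p14) gave the order, overlaps and promoters; no coordinates of the files' build were used. Alternatives were DESeq2-type size factors, library totals, DESeq2 1.42.0, a fit without filtering, a stricter minimum (10 CPM in at least 2 libraries), a fit to just the 4 libraries of a contrast, a block for the replicate number, symbols on several lines left out, and each library left out; the fit was tested on simulated data. Python 3.11.15, pandas 2.3.3 and matplotlib 3.10.9 handled the tables and figures.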

Additional observations from a re-analysis of the deposited data

How the results depend on the processing

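Of 96 comparisons of tested members, 21 changed their call under some alternative and 11 changed sign; the genes with changed calls and their adjusted p-values stand beside the results, those under the replicate blocks excepted. The minimum of 10 CPM in 2 libraries left 10 of the 47 genes, and with fewer genes tested 2 were higher and 3 lower in ELK3-labelled over vector-labelled libraries, 3 higher and 5 lower in ELK3-labelled over control, and 5 higher and 5 lower in vector-labelled over control. DESeq2 called 4 lower between the plasmid groups; the cause was not tested. Leaving out 1 library gave 3 to 7 higher and 4 to 8 lower there, 11 to 15 higher and 7 to 8 lower in ELK3-labelled over control, and 16 to 18 higher and 8 to 10 lower in vector-labelled over control. ELK3 kept its direction in every alternative, with log2 fold changes between -5.15 and -5.00, -2.63 and -2.48, and 2.46 and 2.57 in these comparisons when 1 library was left out.

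No value that changed sign had an adjusted p under 0.05. With 1 library left out, the ELK3-labelled over vector-labelled log2 fold change ran from -1.08 to 2.84 for ADAMTS12, -0.0021 to 0.33 for ADAMTS17, -1.69 to 0.079 for ADAMTS20, -0.33 to 0.20 for ADAMTS3, -0.37 to 0.33 for ADAMTS6 and -0.085 to 0.10 for MMP25. ELK3-labelled over control, it ran from -0.0011 to 1.63 for MMP10, -0.13 to 4.37 for MMP12 and -3.37 to 2.92 for MMP7. Vector-labelled over control, it ran from -1.18 to 0.037 for ADAMTS9 and -0.56 to 0.11 for MMP16. Between the plasmid groups ADAMTS6 was at 0.0001 with library totals and 0.036 with no filter, and MMP25 at -0.0037 with DESeq2 and -0.010 with the replicate block. The cause was not tested.

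Library totals moved the median of all genes against the controls to 0.18 in the ELK3-labelled and 0.18 in the vector-labelled libraries, against 0.02 and 0.05 with TMM. The replicate numbers are not stated to pair libraries, and the deviations of same-numbered libraries correlated by 0.003 between the plasmid groups, 0.053 between ELK3-labelled and control libraries and -0.109 between vector-labelled and control libraries, over 11950 genes. With a replicate block, 7 members were higher and 8 lower between the plasmid groups, 12 and 8 in ELK3-labelled over control, and 17 and 10 in vector-labelled over control; ADAMTS13 was then called between the plasmid groups (0.0495), as with the crossed block below (0.039). A block with the numbers of the vector-labelled libraries crossed, added after seeing the data, gave the same 7 and 8, 12 and 8, and 17 and 10. The 15 untested genes had too few counts for the fit and are given by counts.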
